A study of Mus musculus with 6 samples.

Results

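The 89 genes described here encode proteasome subunits and their partners, ubiquitin-conjugating enzymes, and deubiquitinases, the enzymes that remove ubiquitin. They were taken from the 9295 genes of the deposited table by symbol prefix: Psma, Psmb, Psmc, Psmd, Psme, Psmf and Psmg for the proteasome, Ube2 for the conjugating (E2) enzymes, and Usp with a number, Uchl, Otub and Otud for the deubiquitinases. Usp18 has such a prefix and was left out by name. The members are 36 proteasome, 18 Ube2 and 35 deubiquitinase genes. RNA was extracted from mouse bone marrow whose cell type is labelled Leukemia, and the study asked what poly(A) polymerase alpha, encoded by Papola, does there. The 3 libraries called Con carry the genotype PAPOLA flox/flox and the 3 called KO the genotype PAPOLA KO. The labels give no Cre driver, leukemia driver, sort of cells, age or sex, and they do not say that the libraries of a group came from separate animals. The p-values may therefore measure technical spread only. Because these are bulk samples, fewer cells of a type and less RNA per cell cannot be told apart.

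Ubiquitin is passed from an activating enzyme (E1) to a conjugating enzyme (E2), and a ligase (E3) then joins it to a substrate. Chains of ubiquitin mark proteins for the 26S proteasome, in which the 19S regulatory particle binds, deubiquitinates and unfolds the substrate and the 20S core cuts it. Blood cells can swap catalytic subunits of the core for immunoproteasome subunits, which are induced by interferon and favour peptides for antigen presentation, and deubiquitinases edit or reverse the signal at each step.

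The column totals were 11253932 to 11436216 counts in the Con and 8875022 to 9768143 in the KO libraries. The Papola counts were 3751, 3779 and 3642 in Con and 2928, 2929 and 2440 in KO, which is 290.8 ± 6.42 against 339.2 ± 23.8 CPM (counts scaled to a common library total, mean ± SD, n = 3). This is a log2 fold change of 0.22 (adjusted p = 0.0291, edgeR), which with library size alone was -0.13 (adjusted p = 0.187). Papola was thus not called lower in the libraries labelled KO under either scaling, and a whole-gene count does not show whether the deleted exons are missing, so every direction below is between labelled groups. Con 2 and Con 3 were much closer to each other (chi-square per degree of freedom 1.68) than the other pairs within a group (17.7 to 23.7), and calls were also counted with both summed as 1 sample. Markers of other blood cells differed strongly between the groups. All 14 late neutrophil markers were higher in KO and together held 0.912% to 0.985% of counts in Con and 15.5% to 18% in KO. Of 13 erythroid markers 12 were higher, with 0.0911% to 0.12% in Con and 1.62% to 2.28% in KO. Of 12 macrophage markers 8 were lower and 4 higher, with 2.36% to 3.34% in Con and 0.119% to 0.21% in KO. Gpnmb (14060 CPM in Con, 8.259 CPM in KO) and Mmp12 (8292 and 1.489 CPM) had the highest Con levels of this list. The 4 that rose were C1qa, C1qb, C1qc and Vcam1, so the share does not describe every marker. All 6 proliferation markers were higher, with 0.104% to 0.112% in Con and 0.154% to 0.173% in KO. Of 6 leukemic blast or progenitor markers 3 were higher and 2 lower, with 0.0654% to 0.0716% in Con and 0.303% to 0.399% in KO. Of 8 T and NK markers 7 were higher and 1 lower, and of 4 B cell markers 2 were higher and 0 lower. No measured marker of these lists was at 0 throughout a group, and the part of these cell types in the values below was not tested.

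Members moved less than most genes. The edgeR quasi-likelihood test at a Benjamini-Hochberg adjusted p under 0.05 called 60 of the 86 members with enough counts to test (69.8%), against a background of 82% of all 8358 genes tested. The median absolute log2 fold change was 0.38 over the members and 0.92 over all genes. In KO 28 members were higher and 32 lower, where the background was 39.6% higher and 42.4% lower. The 3 families divided differently. Of 36 proteasome genes 10 were higher and 14 lower, of 17 Ube2 genes 9 were higher and 2 lower, and of 33 deubiquitinase genes 9 were higher and 16 lower. Their median log2 fold changes (KO less Con) were -0.12, 0.24 and -0.20, beside -0.06 over all genes, and no test of the families against each other was made. The values of the groups did not overlap for 27 proteasome, 11 Ube2 and 26 deubiquitinase genes, and for 84.5% of all genes. The 3 members with too few counts to test were Ube2ql1 (1, 0 and 1 counts in Con, 2, 4 and 0 in KO), Otud7a (0, 0 and 1, then 0, 0 and 2) and Uchl4 (2, 1 and 0, then 4, 6 and 2), a near copy of Uchl3.

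These levels are CPM scaled with TMM factors, which correct for counts concentrated in a few genes. Scaling by library size alone lowered the median of all genes by 0.35 on the log2 scale, from -0.06 to -0.41. The proteasome then had 2 genes higher and 25 lower, Ube2 6 and 6, the deubiquitinases 4 and 23, and all genes 2488 and 4476. Higher calls made up 35.7% of all calls under that scaling and 48.3% under TMM. Less the median of all genes, the family medians were -0.06, 0.30 and -0.14 under both scalings. Small positive changes below therefore depend on it, and each called gene whose sign changed is named with its value.

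Proteasome genes kept a narrow range. Under TMM none of the 36 changed by 2-fold or more, while 46.6% of all genes were called at that size. With library size alone 4 were called at least 2-fold lower (11.1%, against 49.2% of all genes called at that size). The median coefficient of variation of the 36 genes between libraries was 4.39% in Con and 6.58% in KO, beside 7.03% and 12% over all tested genes. As a share of all counts, which is scaling by library size, the family held 0.8355%, 0.8035% and 0.7957% in Con 1 to 3 and 0.5737%, 0.6167% and 0.5489% in KO 1 to 3. Under TMM its summed level was 7143, 7221 and 7162 CPM in Con and 6548, 6852 and 6269 CPM in KO. Every KO library was below every Con library on both scales, 1.4-fold by the means of the share and 1.09-fold by those of the TMM sums.

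**Figure D1:**
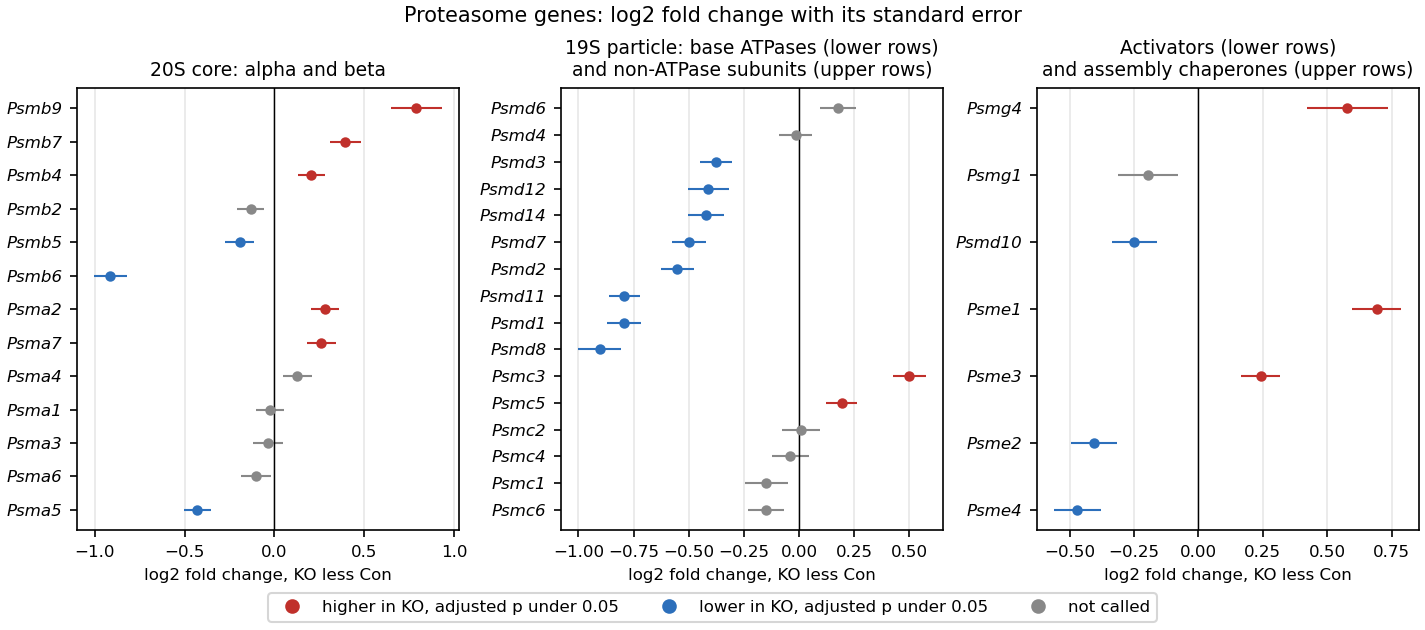
Log2 fold change (KO less Con, TMM scaling, 3 libraries a group) of the proteasome genes on the x axis, 1 gene a row, with bars of 1 standard error; red is higher, blue lower and grey not called at an adjusted p under 0.05. In the middle panel 8 of 10 Psmd subunits were called lower while the base ATPases lie near 0 or right of it; with library size alone every point moves left by about 0.35, and Psma2, Psma4, Psma7, Psmb4, Psmc2, Psmc5, Psmd6 and Psme3 fall below 0.

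The 7 alpha subunits form the outer rings of the 20S core and its gate. Most stayed within a narrow band: 2 were higher, 1 was lower and 4 were not called, with a median log2 fold change of -0.03. With library size alone none was called higher and 5 were called lower, with a median of -0.38. Psma5 was 257.7, 247.3 and 247.8 CPM in Con and 188.5, 192.9 and 177.5 CPM in KO, and so fell by 0.43 on the log2 scale (SE 0.07, adjusted p = 0.000438, edgeR). Its groups did not overlap, and the call held under every alternative run. Psma2 (222.5 ± 8.56 against 270.2 ± 12.7 CPM) and Psma7 (212.8 ± 9.26 against 255.1 ± 13.7 CPM) were called higher by 0.28 and 0.26, but were -0.08 and -0.09 with library size alone. Without Con 3 the edgeR adjusted p of Psma7 was 0.0601. Psma1, Psma3, Psma4 and Psma6 were not called, with log2 fold changes of -0.03, -0.04, 0.13 and -0.10, the smallest being that of Psma1 (adjusted p = 0.769, edgeR). Their groups overlapped except for Psma6, whose highest KO library equalled its lowest Con library at 315.8 CPM to the digits shown.

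The beta subunits carry the cutting sites, and of the proteasome classes theirs had the widest range of log2 fold changes. Psmb6 is the constitutive beta1 subunit, which cuts after acidic residues, and Psmb9 is the immunoproteasome subunit that takes its place. Psmb6 (gene ID 19175) was 291.5, 317.7 and 330 CPM in Con and 171.5, 175.5 and 151.5 CPM in KO. It fell 1.88-fold, or by 0.91 on the log2 scale (SE 0.09, adjusted p = 8.87e-06, edgeR). Every KO library lay far below the lowest Con library. Psmb9 (gene ID 16912) was 97.65, 64.91 and 71.98 CPM in Con and 130.5, 141.5 and 133.6 CPM in KO. It rose 1.73-fold, or by 0.79 on the log2 scale (SE 0.14, adjusted p = 0.00055, edgeR), and both calls held under every alternative run. Con 1 was the highest Con library for Psmb9 and the lowest for Psmb6, yet it did not reach the KO range of either.

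The ratio of Psmb9 to Psmb6 counts within a library needs no scaling between libraries. It was 0.335, 0.204 and 0.218 in Con and 0.761, 0.806 and 0.882 in KO, a 3.31-fold difference of the means on the log scale. Set against the sum of Psmb5, Psmb6 and Psmb7, Psmb9 gave 0.141, 0.0861 and 0.0978 in Con and 0.208, 0.214 and 0.234 in KO, a 2.07-fold difference. These are descriptions with no test, and Psmb9 was the single immunoproteasome subunit among the genes analysed here. As Psmb9 was called higher and Psmb6 lower, the direction of their ratio adds no separate result. The other constitutive catalytic subunits did not follow Psmb6. Psmb7, with trypsin-like activity, rose from 204.4 ± 9.65 to 268.8 ± 22.8 CPM, by 0.39 on the log2 scale (adjusted p = 0.00212, edgeR), which was 0.04 with library size alone. Psmb5, with chymotrypsin-like activity, was 210.4 ± 9.32 against 184.1 ± 11.4 CPM, at the edge of the threshold (log2 fold change -0.19, adjusted p = 0.0494, edgeR). Its call was lost when any 1 library other than KO 2 was left out, with an adjusted p of up to 0.261 without Con 2. The structural subunit Psmb4 was called higher by 0.21 (adjusted p = 0.0254, edgeR) but was -0.15 with library size alone. Leaving out Con 2, Con 3 or KO 2 took its adjusted p to 0.0988, 0.0736 and 0.051. Psmb2 was not called (-0.13, adjusted p = 0.135, edgeR).

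**Figure D2:**
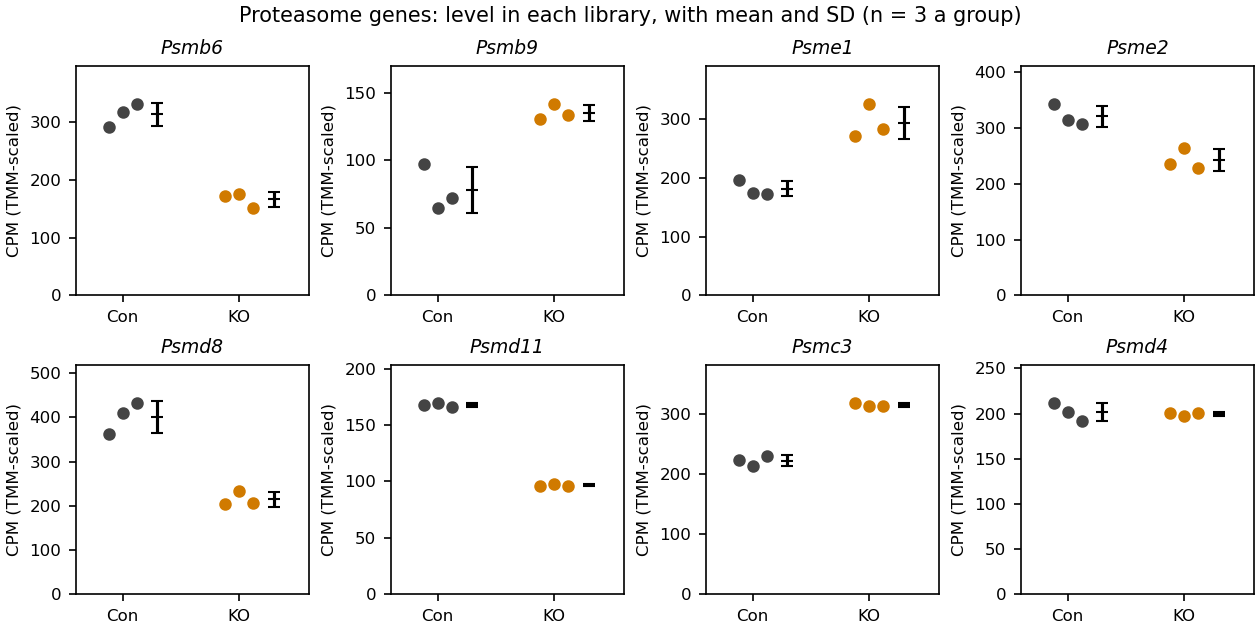
TMM-scaled CPM (y axis, from 0) of 8 proteasome genes in each of the 3 Con and 3 KO libraries, with the mean and SD beside the points. Psmb6, Psme2, Psmd8 and Psmd11 are lower and Psmb9, Psme1 and Psmc3 higher in every KO library (Psmc3 at an adjusted p of 0.12 with library size alone), and Psmd4 overlaps.

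The promoters of the 2 beta subunits that were called lower are shown because both hold the core of the antioxidant response element, the site through which the transcription factor Nfe2l1 is known to drive proteasome genes. Each line gives the 250 bases before the annotated start, on the gene's own strand, from RefSeq in build GRCm38.p6. Capitals mark a match to TGACNNNGC, searched on both strands. For Psmb6 the stretch is chr11:70525107-70525356 on the plus strand and the match begins 9 bases before the start. For Psmb5 it is chr14:54617996-54618245 on the minus strand and the match begins 47 bases before the start.
Psmb6: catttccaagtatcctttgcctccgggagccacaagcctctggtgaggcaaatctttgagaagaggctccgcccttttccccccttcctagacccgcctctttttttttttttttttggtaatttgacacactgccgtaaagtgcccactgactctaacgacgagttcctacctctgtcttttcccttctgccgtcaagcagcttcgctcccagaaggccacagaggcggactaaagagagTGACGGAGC
Psmb5: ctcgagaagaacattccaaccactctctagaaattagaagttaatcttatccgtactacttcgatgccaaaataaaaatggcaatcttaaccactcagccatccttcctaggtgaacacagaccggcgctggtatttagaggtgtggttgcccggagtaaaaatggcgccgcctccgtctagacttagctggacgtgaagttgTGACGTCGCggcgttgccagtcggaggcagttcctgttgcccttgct
The letters occur in 4 of the 31 proteasome genes with a promoter in the table (12.9%), in 2 of 15 Ube2 (13.3%) and 4 of 27 deubiquitinase genes (14.8%). They occur in 11.5% of all 27025 genes with a promoter and in 13.3% of the 7341 that were measured here. The proteasome share is close to both. The other 2 proteasome genes with a match are Psmd12 and Psmc6, whose matches lie further out, at 247 and 227 bases before the start. A match describes these letters and is no evidence of binding.

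The base of the 19S particle holds 6 ATPases, the Psmc genes, that unfold the substrate and thread it into the core. They moved little. Psmc3 was the one with a clear difference, at 223.7, 213.7 and 230.9 CPM in Con and 318.3, 313.6 and 313.7 CPM in KO (log2 fold change 0.50, SE 0.07, adjusted p = 0.000145, edgeR). The 3 KO values of Psmc3 were nearly equal and all above Con, but with library size alone its log2 fold change was 0.15 (adjusted p = 0.12). Psmc5 was called higher by 0.19 (adjusted p = 0.0271, edgeR) but was -0.16 with library size alone. Without Con 1, Con 2 or Con 3 its adjusted p was 0.0611, 0.0825 and 0.0651. Psmc1, Psmc2, Psmc4 and Psmc6 were not called and had log2 fold changes of -0.15, 0.01, -0.04 and -0.15. With library size alone these were -0.50, -0.35, -0.40 and -0.50, and all 4 genes were called lower (edgeR adjusted p of at most 0.00637).

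The 19S non-ATPase subunits, which form the scaffold, the lid and the ubiquitin receptors, had, among those with a Psmd symbol, more calls in 1 direction than any other proteasome class here. Of the 10 measured under a Psmd symbol, 8 were called lower, none was called higher, and 2 were not called, with a median log2 fold change of -0.46. These 8 calls held under every alternative and without any 1 library, and library size alone added 1 more. A higher call, 1 each time, appeared with RLE factors (another scaling), DESeq2, the stricter filter and without KO 3. With RLE factors it was Psmd6 (0.23, adjusted p = 0.0299, edgeR), as with DESeq2 (0.23, adjusted p = 0.0319). Psmd8, a lid subunit, was 361.4, 409.3 and 432 CPM in Con and 203.1, 234 and 206.4 CPM in KO (log2 fold change -0.90, SE 0.10, adjusted p = 1.71e-05, edgeR). Psmd1, a scaffold subunit of the base, was 227.4, 250.1 and 252.2 CPM in Con and 139.5, 142.8 and 139 CPM in KO (-0.79, SE 0.08, adjusted p = 8.28e-06). Psmd11, a lid subunit that braces the core against the 19S particle, was 167.6, 169.5 and 165.7 CPM in Con and 96.17, 97.95 and 96.38 CPM in KO (-0.79, SE 0.07, adjusted p = 4.67e-06). For each of these 3 genes the KO values lay well below the Con values, and for Psmd11 the libraries within a group differed by little.

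Psmd2, the base scaffold that docks shuttle factors and Usp14, was 537.2, 570 and 548.1 CPM in Con and 382.7, 377.7 and 368.9 CPM in KO, a log2 fold change of -0.55 (adjusted p = 8.61e-05, edgeR). Psmd14, the metalloprotease of the lid that removes ubiquitin chains as the substrate enters, was 182.6, 189.2 and 181.9 CPM in Con and 143.8, 143.8 and 126 CPM in KO, a log2 fold change of -0.42 (adjusted p = 0.000906, edgeR). Psmd7, its partner in the lid, fell by 0.50, and the lid subunits Psmd12 and Psmd3 by 0.41 and 0.38, on the log2 scale. None of these 5 genes had a KO value inside the Con range. Psmd4, a receptor for ubiquitin chains, was 211.5, 201.9 and 191.8 CPM in Con and 200.4, 197.5 and 201 CPM in KO. Its groups overlapped (-0.01, adjusted p = 0.858, edgeR), as did those of the lid subunit Psmd6 (0.18, adjusted p = 0.073).

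Within each library the summed counts of the base ATPases were 0.444, 0.42 and 0.437 of those of the Psmd non-ATPase subunits in Con and 0.672, 0.672 and 0.639 in KO, a 1.52-fold difference. The alpha subunits gave ratios to the same sum of 0.724, 0.681 and 0.672 in Con and 0.993, 1.01 and 0.961 in KO, a 1.43-fold difference. Neither ratio overlapped between the groups. Both were chosen after the genes' values were seen and carry no test.

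**Figure D3:**
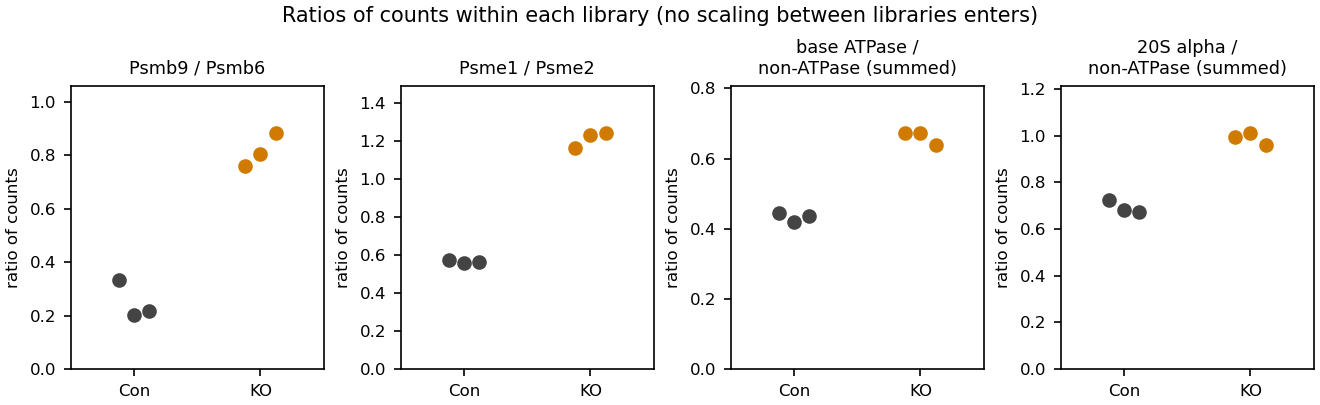
Ratios of raw counts within each library (y axis, from 0) for 2 gene pairs and 2 pairs of summed subunit classes, 1 point a library, Con in grey and KO in orange. In each panel the 3 KO points lie above the 3 Con points, from a 1.43-fold difference for alpha over non-ATPase subunits to 3.31-fold for Psmb9 over Psmb6. No ratio carries a test. Of those shown only Psmb9 over Psmb6 was planned, as an alternative to the ratio over the summed constitutive subunits.

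The activators cap the core in place of the 19S particle. Psme1 and Psme2 encode the paired alpha and beta subunits of the interferon-induced 11S activator, and they went in opposite directions. Psme1 (gene ID 19186) was 196.2, 174.5 and 172.9 CPM in Con and 271.4, 324.4 and 282.7 CPM in KO (log2 fold change 0.69, SE 0.10, adjusted p = 9.34e-05, edgeR). Psme2 (gene ID 19188) was 341.7, 313.2 and 306.7 CPM in Con and 234.5, 264 and 227.8 CPM in KO (-0.41, SE 0.09, adjusted p = 0.00193). Both changes held under every alternative run, with no overlap of groups. Their ratio of counts, Psme1 over Psme2, was 0.574, 0.557 and 0.564 in Con and 1.16, 1.23 and 1.24 in KO, a 2.14-fold difference with a narrow spread in each group. This ratio was not planned and carries no test. As Psme1 was called higher and Psme2 lower, its direction adds no separate result. Psme2 is among 9 members with counts that are not whole, and the part of this in the ratio was not tested.

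Psme4, the large nuclear activator linked to degradation of acetylated histones, fell from 167.5 ± 8.55 to 120.9 ± 11.1 CPM (log2 fold change -0.47, adjusted p = 0.000848, edgeR). The nuclear activator Psme3 was called higher by 0.24 (adjusted p = 0.0132, edgeR), was -0.12 with library size alone, and had an adjusted p of 0.0657 without Con 3. The assembly chaperones did not share a direction. Psmg4, a chaperone of the core, rose from 8.365 ± 1.12 to 12.51 ± 0.916 CPM (0.58, adjusted p = 0.00712, edgeR; adjusted p = 0.252 with library size alone). Psmd10, the chaperone of the base also known as gankyrin, fell by 0.25 on the log2 scale (adjusted p = 0.0237, edgeR). Without Con 2, Con 3 or KO 3 its adjusted p was 0.134, 0.145 and 0.0556. Psmg1 was not called (-0.20, adjusted p = 0.142, edgeR). The count of proteasome genes called higher itself depended on Con 3: it was 10 with all libraries, 6 without Con 3 and 6 with Con 2 and Con 3 summed, while the count called lower, 14 with all libraries, was 12 with the sum and at least 12 without any 1 library.

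Of the 17 Ube2 genes tested, 9 rose and 2 fell, and 11 did not overlap between the groups. The family held 0.2304%, 0.2212% and 0.2182% of counts in Con and 0.2504%, 0.2824% and 0.2523% in KO, so its share was higher in each KO library (1.17-fold by the means). Under TMM its summed level was 1970, 1988 and 1964 CPM in Con and 2858, 3138 and 2882 CPM in KO, 1.5-fold higher. Of the 9 higher calls 6 held under every alternative and 7 calls were made with Con 2 and Con 3 summed, and both lower calls held throughout. Counts of Ube2l6, Ube2d3, Ube2l3 and Ube2e1 were not all whole. The Con libraries were close together, with a median coefficient of variation of 2.17%, against 8.49% in KO. Over all tested genes it was 7.03% in Con and 12% in KO, so the wider KO spread is not particular to this family.

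Ube2l6, the main E2 for the interferon-induced modifier ISG15, had the largest positive log2 fold change among the Ube2 genes. It was 116, 118.4 and 113.6 CPM in Con and 294.5, 392 and 339.1 CPM in KO, a 2.95-fold rise (log2 fold change 1.56, SE 0.11, adjusted p = 8.5e-07, edgeR). Ube2c, which works with the anaphase-promoting complex to build chains in mitosis, was 104.5, 98.07 and 97.73 CPM in Con and 215.7, 233.4 and 202.2 CPM in KO (1.12, SE 0.08, adjusted p = 1.34e-06, edgeR). Ube2h, an E2 known for its rise in maturing red cells, was 115.4, 115.3 and 114.9 CPM in Con and 248.7, 220.2 and 234.1 CPM in KO (1.02, SE 0.08, adjusted p = 1.49e-06, edgeR). For these 3 genes the lowest KO library lay well above the highest Con library. The erythroid markers and the proliferation markers were higher in the same libraries, at the values given above, and their part was not tested.

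Ube2d1, Ube2d3 and Ube2e3 belong to closely related groups of E2 enzymes that serve many ligases. Ube2d3 went from 488.3 ± 0.841 to 862.1 ± 34 CPM, up by 0.82 on the log2 scale (adjusted p = 6.69e-06, edgeR). Ube2d1 rose from 21.96 ± 0.112 to 40.87 ± 2.83 CPM (0.90) and Ube2e3 from 52.06 ± 1.22 to 92.75 ± 7.87 CPM (0.83). Their relative Ube2e2 went the other way, with 8.257, 9.744 and 9.517 CPM in Con and 2.103, 2.097 and 1.287 CPM in KO, a 4.96-fold fall (log2 fold change -2.31, SE 0.23, adjusted p = 1.02e-05, edgeR). Ube2e1, the third of that group, was not called (-0.03, adjusted p = 0.817, edgeR). The 3 Ube2e genes thus had 1 call up, 1 call down and 1 with overlapping groups.

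Ube2q2 fell from 65.48 ± 1.42 to 51.19 ± 2.28 CPM (-0.35, adjusted p = 0.00213, edgeR), whereas its paralog Ube2q1 was called higher by 0.32 (adjusted p = 0.00245) and was -0.04 with library size alone. Ube2k, which builds chains linked through lysine 48 of ubiquitin, was called higher by 0.24 (adjusted p = 0.0163, edgeR), was -0.11 with library size alone, and had an adjusted p of 0.0557 without Con 3. Ube2l3, an E2 for HECT and RBR ligases, was called higher by 0.23 (adjusted p = 0.0291, edgeR) and was -0.12 with library size alone. Its call was lost without Con 1, Con 2, Con 3 or KO 2, with an adjusted p of up to 0.0803. Ube2m, the E2 for NEDD8, Ube2a, which acts on histone H2B and PCNA, and the catalytically inactive variant Ube2v2 were not called, with log2 fold changes of -0.08, -0.04 and 0.08. Ube2o, a joint E2 and E3 enzyme that remodels the proteome of reticulocytes, was 48.25, 46.52 and 46.7 CPM in Con and 42.77, 54.77 and 58.17 CPM in KO. KO 1 lay below Con and the other KO libraries above it (0.14, adjusted p = 0.295, edgeR), and without KO 1 the log2 fold change was 0.26 with an adjusted p of 0.0231. Ube2cbp, a ligase that binds Ube2c and is counted here by its prefix, was measured at 1.3 ± 0.056 and 1.686 ± 0.479 CPM and was not called.

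The promoter of Ube2c is shown because genes of the mitotic programme often carry a cell cycle homology region, TTTGAA. The stretch is chr2:164769679-164769928 on the plus strand (RefSeq, GRCm38.p6), and capitals mark the match, which lies on the reverse strand 29 bases before the start.
Ube2c: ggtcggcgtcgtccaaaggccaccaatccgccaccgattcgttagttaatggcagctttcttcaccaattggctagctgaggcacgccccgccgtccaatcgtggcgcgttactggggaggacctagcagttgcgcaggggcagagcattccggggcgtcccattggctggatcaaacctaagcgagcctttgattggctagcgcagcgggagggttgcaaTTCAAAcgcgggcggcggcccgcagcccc
Ube2c was 1 of 15 Ube2 genes with these letters (6.67%), which occur on either strand in 18.3% of all genes with a promoter and in 14.3% of those measured here.

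**Figure D4:**
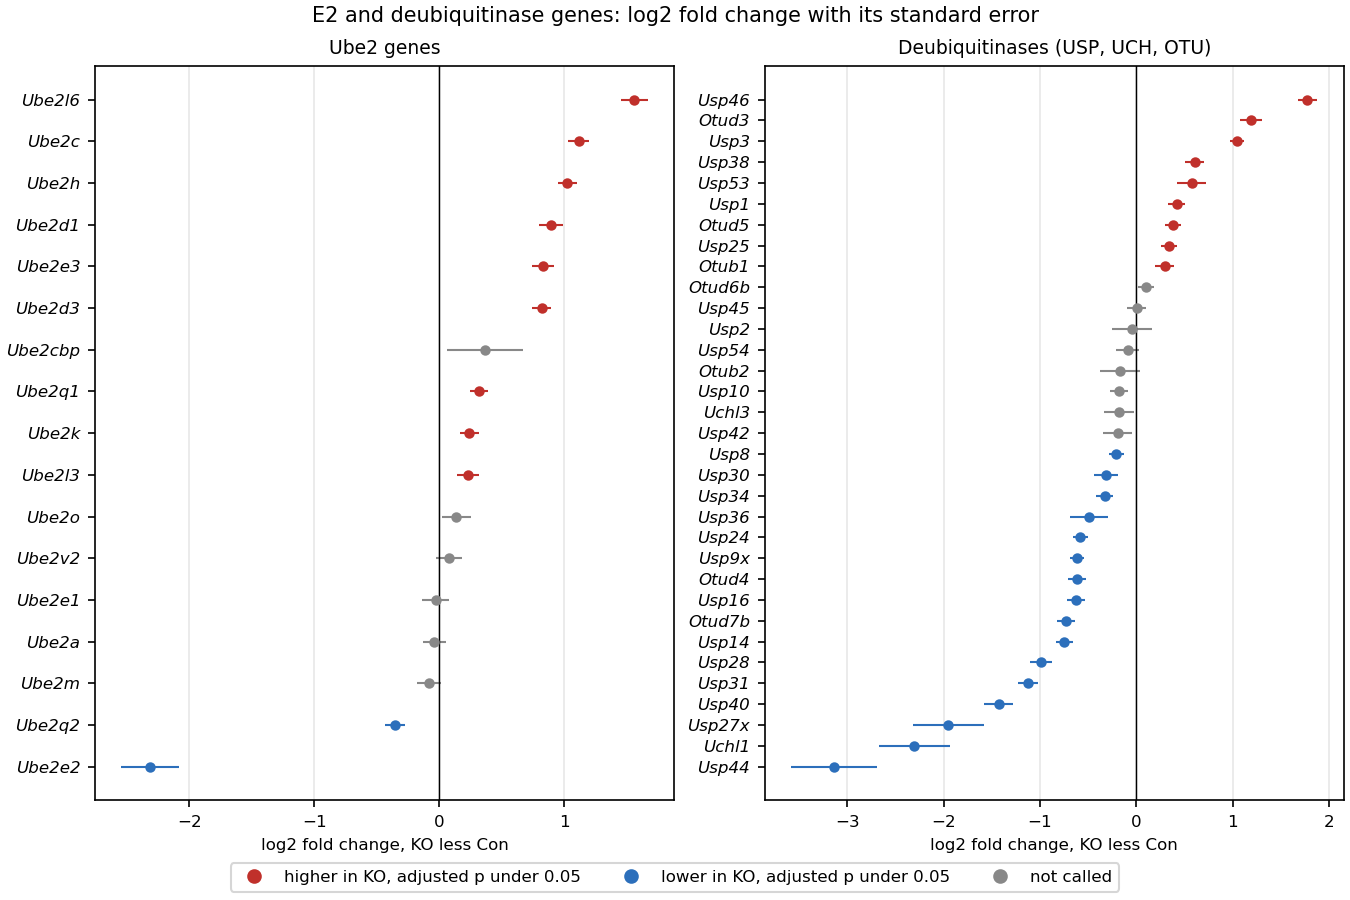
Log2 fold change (KO less Con, TMM scaling, 3 libraries a group) of the Ube2 genes (left) and the deubiquitinases (right) on the x axis, 1 gene a row, with bars of 1 standard error; colours as in the proteasome plot. Higher calls outnumber lower calls 9 to 2 on the left and lower outnumber higher 16 to 9 on the right; with library size alone these were 6 to 6 and 23 to 4, and Ube2k, Ube2l3, Ube2o, Ube2q1, Ube2v2, Usp25, Usp45, Otub1 and Otud6b fell below 0.

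Among the 33 deubiquitinases tested, 16 fell and 9 rose, and the family held 0.2644%, 0.2525% and 0.2484% of counts in Con and 0.1891%, 0.1934% and 0.1906% in KO, 1.34-fold lower by the means. Under TMM its summed level was 2260, 2269 and 2236 CPM in Con and 2158, 2149 and 2177 CPM in KO, 1.04-fold lower, with no overlap on either scale. Most lower calls were in the USP class, cysteine proteases and the largest class of deubiquitinases, with 13 of 24 lower and 6 higher (median log2 fold change -0.26). Of the OTU class, which often cuts particular chain types, 2 of 7 were lower and 3 higher. Of the 16 lower calls 13 held under every alternative, 13 lower calls were made with Con 2 and Con 3 summed, and of the 9 higher calls 4 did, those of Usp46, Usp3, Usp38 and Otud3.

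Usp14 rests on the proteasome base and trims chains from bound substrates. It was 164.1, 166 and 155.8 CPM in Con and 98.97, 104.4 and 85.96 CPM in KO (log2 fold change -0.75, SE 0.09, adjusted p = 3.81e-05, edgeR). Its 3 KO values lay below Con, as did those of Psmd2, the subunit on which it docks, and of Psmd14, another proteasome-bound deubiquitinase described above. Counts of Usp14 were not all whole, and neither were those of Usp16, Usp34 and Usp44 described below.

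The deubiquitinases that act on chromatin did not share a direction. Usp3, which removes ubiquitin from histones H2A and H2B, rose from 63.34 ± 1.91 to 130.6 ± 5.23 CPM (log2 fold change 1.04, adjusted p = 1.25e-06, edgeR). Usp16, which acts on histone H2A, fell from 61.18 ± 3.06 to 39.61 ± 3.16 CPM (-0.63, adjusted p = 0.000138, edgeR). Usp1, which acts on FANCD2 and PCNA in DNA repair, was called higher at 137.2 ± 4.79 against 183.3 ± 17.9 CPM (0.42, adjusted p = 0.00164, edgeR) but was 0.06 with library size alone. Its measured rise thus depends on the scaling, while the calls of Usp3 and Usp16 did not.

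Usp46, an enzyme that depends on WD-repeat partners for activity, had the largest rise of any member. It was 28.94, 28.13 and 26.15 CPM in Con and 105.2, 95.23 and 84.16 CPM in KO, 3.42-fold higher (log2 fold change 1.77, SE 0.10, adjusted p = 2.92e-07, edgeR). Otud3, an OTU enzyme, was 20.38, 21.3 and 24.23 CPM in Con and 51.53, 43.92 and 54.56 CPM in KO (1.19, SE 0.12, adjusted p = 8.81e-06, edgeR). Both genes were far above Con in every KO library. Usp38 rose by 0.60 (adjusted p = 0.000289, edgeR). Usp53 and Usp25 were called higher by 0.58 and 0.34, and were 0.22 (adjusted p = 0.199) and -0.02 with library size alone. Otud5, which regulates interferon signalling, was called higher by 0.38 (adjusted p = 0.002, edgeR) and was 0.02 with library size alone. Otub1, which blocks E2 enzymes by binding them, was called higher by 0.29 (adjusted p = 0.0216, edgeR) and was -0.06 with library size alone. Without Con 1, KO 1 or KO 2 its adjusted p was 0.0727, 0.0694 and 0.0691.

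The largest falls among the more abundant USP genes were those of Usp40 (33.31 ± 3.2 to 12.36 ± 2.25 CPM, log2 fold change -1.43, adjusted p = 1.4e-05, edgeR), Usp31 (39.96 ± 1.15 to 18.25 ± 1.41 CPM, -1.13) and Usp28, which is known to stabilise Myc (26.18 ± 0.885 to 13.18 ± 0.303 CPM, -0.99). Usp9x, an X-linked enzyme with many substrates, fell from 225.7 ± 5.38 to 147.3 ± 4.86 CPM (-0.62, adjusted p = 3.27e-05, edgeR), and the very large enzyme Usp24 fell by 0.58 (adjusted p = 8.2e-05). None of these 5 genes had overlapping groups. Otud7b, which cuts chains linked through lysine 11, fell from 98.51 ± 4.63 to 59.25 ± 5.72 CPM (-0.73, adjusted p = 5.08e-05, edgeR), and Otud4 from 130.1 ± 4.46 to 84.84 ± 8.28 CPM (-0.62, adjusted p = 0.000151). Usp44, a regulator of the mitotic checkpoint, and Usp27x were near the lower limit of measurement and are named after their values were seen. Usp44 was 6.439, 4.322 and 4.558 CPM in Con and 1.052, 0.4934 and 0.1287 CPM in KO (-3.14, SE 0.45, adjusted p = 0.000117, edgeR). Its 8.79-fold fall was 15.7-fold without KO 1 and 6.49-fold without KO 3. Usp27x went from 3.058 ± 0.746 to 0.7868 ± 0.289 CPM (-1.95, adjusted p = 0.000746).

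Of the lower calls, 3 lay close to the threshold. Usp36, a nucleolar deubiquitinase, was 42.19, 41.34 and 42.63 CPM in Con and 21.15, 28 and 40.92 CPM in KO. KO 3 was almost at the Con level while KO 1 was far below it (log2 fold change -0.49, adjusted p = 0.0445, edgeR). Leaving out KO 3 gave an adjusted p of 0.000512, and leaving out any other library ended the call, with an adjusted p of up to 0.122; the log2 fold change ranged from -0.78 without KO 3 to -0.29 without KO 1. Usp30, which opposes removal of mitochondria, fell by 0.32 (adjusted p = 0.0375, edgeR), and its call was likewise lost without any library but KO 3, at up to 0.156, while its log2 fold change stayed between -0.41 and -0.26. Usp8, which acts at endosomes, fell by 0.21 (adjusted p = 0.0351, edgeR), a call lost without Con 1, Con 2, Con 3 or KO 2, at up to 0.195, with a log2 fold change between -0.24 and -0.15. Usp34, of the large enzymes, fell by 0.33 (adjusted p = 0.00676, edgeR) with no such loss.

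Uchl1, a ubiquitin hydrolase best known from neurons, was 12.2, 24.36 and 23.19 CPM in Con and 2.337, 6.168 and 3.603 CPM in KO (log2 fold change -2.30, SE 0.37, adjusted p = 0.000331, edgeR). Con 1 lay between the other Con libraries and the KO libraries, with no overlap of the groups. Its paralog Uchl3 was 40.3, 33.95 and 38.55 CPM in Con and 31.78, 41.45 and 26.12 CPM in KO and was not called (-0.18, adjusted p = 0.304, edgeR). KO 2 was the highest of all 6 for Uchl3, and without it the log2 fold change was -0.38 with an adjusted p of 0.0295. Usp10, which acts on p53, was 43.87 ± 2.23 against 38.76 ± 2.68 CPM, and its groups did not overlap although it was not called (-0.18, adjusted p = 0.0984, edgeR). Usp2, Usp42, Usp54 and Otub2 were not called either, with overlapping groups and log2 fold changes of -0.04, -0.20, -0.09 and -0.17. Otud6b (0.10) and Usp45 (0.00), the OTU and USP genes that moved least, were -0.26 and -0.35 with library size alone.

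**Figure D5:**
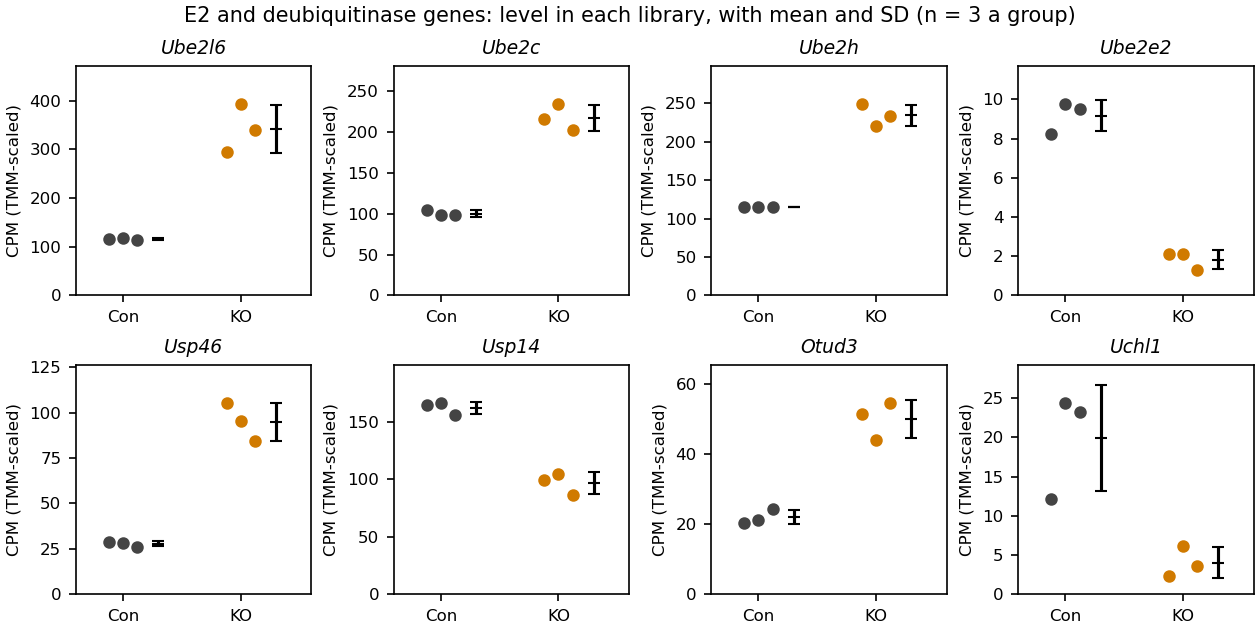
TMM-scaled CPM (y axis, from 0) of 4 Ube2 genes (top row) and 4 deubiquitinases (bottom row) in each of the 3 Con and 3 KO libraries, with the mean and SD beside the points. Ube2l6, Ube2c, Ube2h, Usp46 and Otud3 are higher and Ube2e2, Usp14 and Uchl1 lower in every KO library.

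Genes of the same pathway outside the prefixes were read from fixed lists. Of 8 proteasome regulators and partners, 2 rose and 4 fell. Nfe2l1, the transcription factor that induces proteasome genes when proteasome activity is low, was 346.8, 369.5 and 361.7 CPM in Con and 109.7, 101.8 and 130.5 CPM in KO (log2 fold change -1.66, SE 0.10, adjusted p = 4.25e-07, edgeR). Ddi2, the protease that activates Nfe2l1, fell from 55.41 ± 1.03 to 30.8 ± 5.23 CPM (-0.85, adjusted p = 0.000119, edgeR) and is named after its values were seen. Sem1, the smallest lid subunit, rose from 143 ± 6.03 to 398.1 ± 21.9 CPM (1.48, adjusted p = 2.13e-07, edgeR), opposite to the 8 called Psmd non-ATPase subunits above, and the ubiquitin receptor Adrm1 of the same particle was not called (-0.10, adjusted p = 0.236). Pomp, the maturation factor of the core, rose from 158.7 ± 3.45 to 296.3 ± 26.9 CPM (0.90, adjusted p = 8.25e-06, edgeR). These 4 calls held under every alternative run.

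Of 9 ubiquitin and E1 genes, 2 rose and 3 fell, with Atg7 up by 1.07 on the log2 scale (adjusted p = 1.45e-06, edgeR). Rps27a, a ribosomal protein made as a fusion with ubiquitin, rose from 979.4 ± 51.2 to 1805 ± 90.4 CPM (0.88), and Uba3, the catalytic subunit of the NEDD8 E1, fell from 102.2 ± 9.02 to 54.47 ± 5.33 CPM (-0.91, adjusted p = 2.52e-05, edgeR). Of 17 shuttle and p97 genes, 4 rose and 6 fell, with Faf2 down by 0.98 on the log2 scale. Sqstm1, the p62 receptor that carries ubiquitinated cargo to autophagy, was 1409, 1667 and 1701 CPM in Con and 303, 322.5 and 388.1 CPM in KO (-2.24, SE 0.12, adjusted p = 2.09e-07, edgeR), and the proteasome shuttle Rad23b fell from 276.6 ± 2.87 to 162 ± 9.48 CPM (-0.77). Of 16 genes in a list of other deubiquitinases and related proteases, 7 rose and 4 fell. The list takes in Senp1, Senp3, Senp5 and Senp7, which act on the modifier SUMO, and the COP9 signalosome subunits Cops5 and Cops6. Among the genes called were Eif3f (0.78), Mindy1 (0.74) and Senp5 (-0.92). Of 5 other E2 genes, 2 rose, Ufc1 (0.58) and Cdc34 (0.19, as low as -0.17 under another scaling), and 1 fell, Birc6 (-1.01). Among 28 cullin-RING and APC/C genes 13 rose and 10 fell, with Cul9 at -1.72. Vhl (1.15) and Cul2 (-1.05), also among them, act in 1 ligase complex. Of 17 listed genes of class I antigen processing 9 were measured, of which 1 rose and 6 fell. The riser was the class I gene H2-D1, from 3129 ± 15.3 to 4776 ± 561 CPM (0.61, adjusted p = 0.000439, edgeR). Its call was not kept under every alternative. Nlrc5, the transactivator of class I genes, fell from 101.1 ± 6.12 to 35.08 ± 2.5 CPM (-1.53, adjusted p = 3.42e-07, edgeR), and the chaperones Calr and Canx fell by 1.54 and 1.18 on the log2 scale. Of the members that act in the same pathway, Psmb9 and Psme1 rose, as H2-D1 did, and Psme2 fell. Background counts for these lists are the 39.6% higher and 42.4% lower of all genes given above.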

How the data were processed

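Per the labels' protocols, TRIzol RNA of 6 bone marrow samples went into mRNA libraries (BGI kit). The deposited table holds estimated counts (expected counts) per gene and library, per the file headers. In all 1449 genes (15.6%) have a count that is not whole, and counts were rounded before testing. The aligner is not given in the sources used here. A human build is named in the submitters' processing notes (GRCh38), so no coordinates come from the table. All columns were matched by name and 0 were left unused.

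The comparison used R 4.3.3 and edgeR 4.0.16 (TMM factors from 0.8759 to 1.17, filterByExpr by group, robust quasi-likelihood fit, two-sided, no covariate), and p-values were adjusted by Benjamini-Hochberg over the 8358 genes tested. The standard error is the absolute log2 fold change divided by the square root of F. CPM errors are SDs over 3 libraries. The scripts were tested on simulated data in which few genes changed, so that test does not check the scaling where most genes differ. Alternatives were other scalings, filters, DESeq2 1.42.0, a replicate block, Con 2 and Con 3 summed (added after seeing the data) and each library left out. Con 2 and Con 3 differed beyond counting noise (chi-square p = 2.81e-293 over 8300 genes) and were kept apart. Replicate numbers did not pair the samples.

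Members and lists were chosen with earlier results of these data known. The naming rule took the immunoproteasome, activator and constitutive subunits, up to 4 called genes of highest and lowest fold change per class (Ube2 and USP: 8) whose mean log2 CPM reached 2 with no overlap, members of known role, the least changed member per class, and up to 3 genes of smallest adjusted p per pathway list. It named 62 members and 21 other genes, and the members outside it, which the text names so that every member is accounted for, were named after their values were seen. Psmb8, Psmb10 and some other planned members were not analysed here. Promoters came from RefSeq (GRCm38.p6), where 73 of 89 members matched by gene ID. Gene lengths were not used, so levels are compared within a gene only.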

Additional observations from a re-analysis of the deposited data

How the results depend on the processing

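Under DESeq2 the proteasome had 11 genes higher and 12 lower, Ube2 genes 9 and 2, deubiquitinases 9 and 13, and all genes 3384 and 3322. Library size alone gave 2 proteasome genes higher and 25 lower, 6 Ube2 genes lower and 4 deubiquitinases higher. The number of proteasome genes higher was 5 with upper-quartile factors, 6 with Con 2 and Con 3 summed (all genes then 3201 higher and 3356 lower), and 6 to 12 with 1 library left out. The ratio of Psmb9 to the 3 constitutive subunits differed by 1.05 (log2, KO less Con), and that to Psmb6 alone by 1.73. Among members named by the rule, library size alone changed the sign of the log2 fold change of Otub1 (-0.0623), Otud6b (-0.26), Psma2 (-0.0753), Psma7 (-0.0947), Psmb4 (-0.15), Psmc2 (-0.35), Psmc5 (-0.16), Psme3 (-0.12), Ube2k (-0.11), Ube2q1 (-0.0396), Usp25 (-0.0189) and Usp45 (-0.35), each by about the shift in the median of all genes that this scaling makes. Of the 62 members named by the rule, 59 kept their direction and side of the threshold with DESeq2, 54 with Con 2 and Con 3 summed, 62 with no filter and 60 with the stricter filter. Same-numbered Con and KO libraries did not deviate together (correlations 0.0187, 0.0287 and 0.00116). With the replicate number as a block 3270 genes were higher and 3496 lower, the proteasome had 8 higher and 13 lower, and Psmb4, Psmb5 and Psmc5 were no longer called (adjusted p = 0.0536, 0.0657 and 0.0597). KO libraries held fewer counts and varied more than Con, and Usp44, Uchl1, Usp27x, Ube2cbp and Ube2e2 had the largest standard errors among the members.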
